A study of Mus musculus with 112 samples.

Results

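Beta and gamma tubulins were examined in hearts of 7 mouse strains under caloric restriction (CR) or control feeding. The genes listed were Tubb2a, Tubb2b, Tubb3, Tubb4b, Tubb5, Tubb6 and Tubg1, and a gene was measured if the array had a probe set carrying its symbol alone. This held for 6 of the 7, out of 19938 genes measured in all. Tubb4b had no such probe set, and both probe sets that name it also name Zfp646. The inbred strains were 129S1/SvImJ, BALB/cJ (Balbc/J in the labels), C57BL/6J (C57BL6/J in the labels), C3H/HeJ, CBA/J and DBA/2J, and B6C3F1/J is the hybrid of C57BL/6J and C3H/HeJ. All mice were male, were housed singly, and received 84 kcal per week of a purified diet until 8 weeks of age, when they stayed on the control diet or were moved to the CR diet. Hearts were taken at 22 weeks after an overnight fast in both arms. Food was reduced a further time in the CR arm of 129S1/SvImJ and C57BL/6J, and BALB/cJ mice of both arms were given more, so that the strain and its feeding schedule cannot be told apart. Each of the 14 groups held 8 mice, with 1 array (Affymetrix Mouse Gene 1.0 ST) for each heart. DBA/2J CR replicate 7 was left out of every fit, as the study did with 1 heart array, which left 111 arrays and 7 mice in that group.

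Microtubules are hollow polymers of alpha and beta tubulin dimers. Beta tubulin binds the nucleotide that is hydrolysed as the polymer grows, and several genes encode beta tubulin isotypes that differ mainly in their C-terminal tails. Gamma tubulin does not form the wall of the microtubule. It sits in a ring complex that starts new microtubules at centrosomes and, in muscle cells, at the nuclear envelope. In cardiac muscle cells microtubules carry cargo, position organelles and resist contraction, and the stable ones carry detyrosinated tubulin. Tubb5 is a beta tubulin made in most tissues and abundant in dividing cells, Tubb4b is another widely made isotype, and Tubb6 is a divergent beta tubulin with a broad distribution. Tubb2a and Tubb2b are near-identical genes, best known from neurons, and Tubb3 is the isotype used as a neuronal marker.

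The bases upstream of the start are shown for Tubb5, whose signal rose under CR, for Tubb2a, whose signal was not called, and for Tubb4b, which has no probe set of its own. They are from RefSeq (GRCm38.p6), and the upstream table used here held 4 of the 7 genes (these and Tubb3). Each run holds the 250 bases before the start, 5′ to 3′. Capitals mark the motifs searched on both strands, namely the CCAAT box (CCAAT), the TATA box (TATAAA), the GC box (GGGCGG) and the E-box (CACGTG), and no match overlaps another in the runs shown.
Tubb5 (chr17:35838302-35838551, minus strand): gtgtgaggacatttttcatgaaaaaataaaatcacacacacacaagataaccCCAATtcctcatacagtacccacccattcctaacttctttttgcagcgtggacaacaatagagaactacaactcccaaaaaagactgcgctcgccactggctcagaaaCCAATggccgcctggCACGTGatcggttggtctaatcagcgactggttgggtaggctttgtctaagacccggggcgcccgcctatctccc
Tubb2a (chr13:34078009-34078258, minus strand): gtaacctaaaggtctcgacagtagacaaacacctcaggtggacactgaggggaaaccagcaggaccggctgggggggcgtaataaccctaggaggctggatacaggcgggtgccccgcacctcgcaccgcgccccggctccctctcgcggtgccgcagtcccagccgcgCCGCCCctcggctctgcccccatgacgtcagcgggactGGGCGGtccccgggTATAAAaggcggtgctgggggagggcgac
Tubb4b (chr2:25224703-25224952, minus strand): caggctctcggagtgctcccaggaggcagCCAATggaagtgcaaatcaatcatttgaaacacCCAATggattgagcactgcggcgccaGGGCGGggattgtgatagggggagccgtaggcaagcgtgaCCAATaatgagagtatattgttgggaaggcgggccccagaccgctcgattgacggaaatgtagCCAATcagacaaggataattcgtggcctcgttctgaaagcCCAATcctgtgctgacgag
Tubb5 held 2 matches to CCAAT and 1 to CACGTG. Tubb2a held 1 match to TATAAA and 2 to GGGCGG, and Tubb4b held 5 to CCAAT and 1 to GGGCGG. Over 32851 upstream windows of the same length, CCAAT was found in 33.8%, TATAAA in 12.4%, GGGCGG in 32.7% and CACGTG in 6.02%. A match of letters is a description and not a binding site.

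The array signals were relative log2 values, so a level is compared here only between samples of the same gene. As a rough guide to detection, by the mean over all arrays, Tubb5 stood at percentile 95.4 of all genes, Tubg1 at 85.3, Tubb6 at 68.9, Tubb2a at 65.5 and Tubb2b at 59.0. Tubb3 stood at percentile 18.3, with a mean of 4.03, while 14 genes not expected in heart (pituitary, retinal and pancreatic hormone and photoreceptor genes among them) had a median of 4.05 and a range from 2.90 to 4.87. The Tubb3 signal was therefore in the range of genes that heart is not known to make, and its differences are given as values of a signal near background.

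The hearts had the markers of ventricular muscle, with all 8 measured and an array mean between 11.13 and 12.87. That range spanned 1.74, and the ranges of the 13 means for other cells spanned from 0.91 for neurons through 1.19 for fibroblasts and 1.66 for endothelium to 4.92 for atrial muscle. The atrial marker mean (8 of 8 measured) ran from 6.34 to 11.26, that of white adipocytes (5 of 6) from 6.17 to 9.47, that of lymphocytes (5 of 6) from 4.22 to 7.42 and that of dividing cells (5 of 6) from 4.43 to 8.18. In such whole-tissue samples, fewer cells of a type and less RNA per cell cannot be told apart. The array left out correlated at 0.262 with the rest of its group, and another 6 arrays stood apart from their groups at 0.894 or above: BALB/cJ control replicate 7, C57BL/6J CR replicate 4, C3H/HeJ control replicate 6, CBA/J control replicate 1, DBA/2J control replicate 5 and B6C3F1/J CR replicate 2. For several results that rest on these, values without them are given as well.

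Tubg1, Tubb6 and Tubb5 were higher in CR hearts over the 7 strains, and Tubb2a, Tubb2b and Tubb3 were not called in either direction. The rise was 0.35 ± 0.043 (SE) on the log2 scale for Tubg1, 0.28 ± 0.032 for Tubb6 and 0.22 ± 0.045 for Tubb5. These are changes of 1.27-fold, 1.22-fold and 1.16-fold. Thus 3 of the 6 measured genes rose and 0 fell, in a fit that called 7.69% of all genes higher and 4.34% lower at an adjusted p under 0.05. The median difference was 0.13 over the 6 genes and -0.0026 over all genes.

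Markers of other cells also moved with CR in the same fit. The endothelial mean was 0.14 lower, with 4 of 6 genes called lower, a control range from 7.35 to 9.01 and a CR range from 7.36 to 8.85. The dividing-cell mean was 0.27 lower, in 7 of 7 strains, with 3 of 5 genes called lower, and ranged from 4.54 to 8.18 in control and from 4.43 to 5.37 in CR hearts. Its strain differences were uneven, at -0.75 in DBA/2J, -0.40 in BALB/cJ and -0.01 in B6C3F1/J. DBA/2J control replicate 5 was at 8.18 (rest 4.95 to 5.39) and BALB/cJ control replicate 7 at 7.09 (rest 4.80 to 5.06). The fall was not tested without these arrays. The macrophage mean was 0.12 higher, with 2 of 6 genes called higher (6.42 to 7.82 and 6.68 to 8.47), and the white adipocyte mean 0.17 lower, with 2 of 5 called lower (6.17 to 9.47 and 6.17 to 9.11). A single gene was called higher in each of the ventricular (1 of 8), smooth muscle (1 of 6), brown adipocyte (1 of 4) and Schwann cell (1 of 3) lists. The means of these lists differed by 0.04, -0.01, -0.17 and 0.09, in that order. In the brown adipocyte list the uncalled genes ran from -0.36 to -0.32, against 0.34 for the called one. With atrial and white adipocyte means as covariates the 3 tubulins were still called, at 0.32, 0.27 and 0.22, and the part of the endothelial, dividing-cell and macrophage markers in them was not tested.

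**Figure D1:**
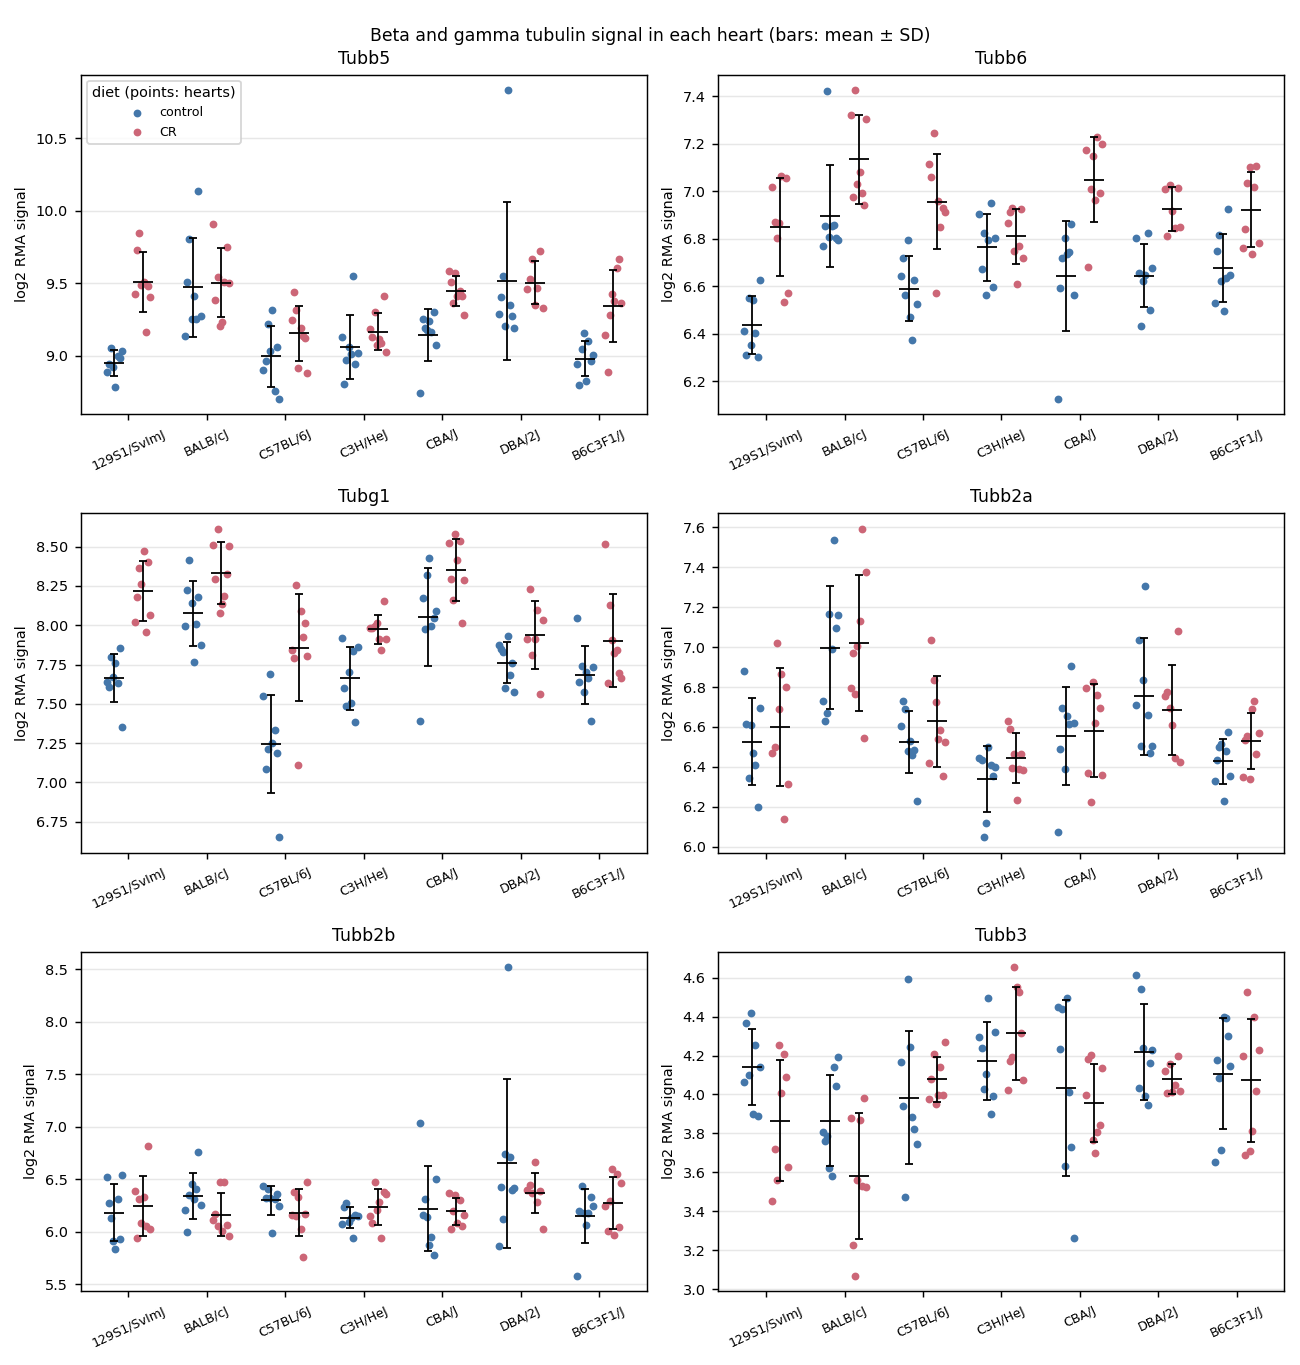
Log2 RMA signal (vertical axes, a separate scale for each gene) of 6 beta and gamma tubulins in each heart, by strain (horizontal axes) and diet (blue control, red CR). Points are single hearts, and black bars give the mean ± SD of each group of 8 mice (7 in DBA/2J CR). In 129S1/SvImJ no CR heart fell among the control hearts for Tubb5 or Tubg1, and DBA/2J control replicate 5 stood at 10.83 for Tubb5 and 8.52 for Tubb2b.

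Tubg1 encodes the main gamma tubulin, the template on which microtubules start. Its signal had a lowest value of 6.65, a median of 7.74 and a highest value of 8.43 in the 56 control hearts, against 7.11, 8.07 and 8.62 in the 55 CR hearts. The ranges overlapped widely over the pooled strains. Within strains the CR mean was the higher one in 7 of 7 strains, which held for 4.87% of all genes. The across-strain difference had a 95% confidence interval from 0.26 to 0.43 and an adjusted p of 6.27e-10 (limma).

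The largest Tubg1 differences were in C57BL/6J and 129S1/SvImJ. In C57BL/6J the control hearts ran from 6.65 through a median of 7.23 to 7.69, and the CR hearts from 7.11 through 7.89 to 8.26. The groups overlapped through CR replicate 4 alone, an array that stood apart and lay at 7.11 while the next CR heart was at 7.79. The difference was 0.61 ± 0.152, with an adjusted p of 0.0936 in the fit of this strain, and 0.72 with an adjusted p of 0.00572 without that array. Over 18 alternatives it ran from 0.45 to 0.72 and was called in 3. The marker means of these groups differed too, at 9.78 in control and 7.73 in CR hearts for atrial muscle. For ventricular muscle they were 12.13 and 12.52, whose part in the difference was not tested. In 129S1/SvImJ the control hearts ran from 7.35 through 7.65 to 7.86 and the CR hearts from 7.96 through 8.22 to 8.47, so every CR heart lay above every control heart. That difference was 0.55 ± 0.085, with an adjusted p of 3.73e-04.

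In the other strains the Tubg1 difference was smaller. It was 0.31 ± 0.078 in C3H/HeJ, 0.30 ± 0.128 in CBA/J and 0.26 ± 0.098 in BALB/cJ, and 0.22 ± 0.120 in B6C3F1/J and 0.18 ± 0.091 in DBA/2J. In C3H/HeJ the control hearts ran from 7.38 through 7.65 to 7.92 and the CR hearts from 7.84 through 7.98 to 8.16, and only the top of the control group reached the CR group. No adjusted p in these 5 strains was under 0.05, and the intervals of DBA/2J and B6C3F1/J included 0.

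Tubb6 encodes the divergent beta tubulin, known from muscle for its rise in damaged or regenerating fibres. In control hearts its signal ran from 6.13 through a median of 6.65 to 7.42, and in CR hearts from 6.54 through 6.96 to 7.43. The CR mean was higher in 7 of 7 strains, with an across-strain interval from 0.22 to 0.35 and an adjusted p of 2.20e-11. The highest control value belonged to BALB/cJ replicate 3, at 7.42 where the next heart of its group was at 6.86.

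The Tubb6 differences were close to each other in most strains. They were 0.41 ± 0.083 in 129S1/SvImJ, 0.41 ± 0.108 in CBA/J and 0.37 ± 0.094 in C57BL/6J, then 0.28 ± 0.070 in DBA/2J, 0.24 ± 0.087 in B6C3F1/J and 0.24 ± 0.098 in BALB/cJ. C3H/HeJ had the smallest difference, 0.05 ± 0.069. There the control hearts ran from 6.56 through 6.80 to 6.95 and the CR hearts from 6.61 through 6.82 to 6.93, with the CR range inside that of the controls. In DBA/2J the control hearts ran from 6.43 through 6.65 to 6.82 and the CR hearts from 6.81 through 6.92 to 7.02, so that the groups shared only their edges. In 129S1/SvImJ, where the adjusted p was 0.00416, control hearts ran from 6.30 through 6.41 to 6.63 and CR hearts from 6.54 through 6.87 to 7.07.

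Tubb5 encodes the beta tubulin known from most tissues, and its strain differences spread the most of the 6 genes. Control hearts ran from 8.70 through a median of 9.09 to 10.83 and CR hearts from 8.88 through 9.41 to 9.91. The highest control value, in DBA/2J control replicate 5, lay above every CR heart. The CR mean was higher in 6 of 7 strains, with an across-strain interval from 0.13 to 0.31 and an adjusted p of 2.60e-04. With the excluded DBA/2J CR array put back, where Tubb5 was at 5.93, the difference was 0.15 with an adjusted p of 0.265, so the call rests on leaving that array out.

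Tubb5 rose most in 129S1/SvImJ. The control hearts ran from 8.78 through 8.96 to 9.06 and the CR hearts from 9.17 through 9.48 to 9.85, with no overlap and a difference of 0.56 ± 0.080 (adjusted p = 2.04e-04). The next largest differences were 0.36 ± 0.102 in B6C3F1/J and 0.30 ± 0.087 in CBA/J. In CBA/J the control hearts ran from 8.74 through 9.18 to 9.30 and the CR hearts from 9.28 through 9.43 to 9.58, and the groups met only at 9.28 to 9.30. C57BL/6J, C3H/HeJ and BALB/cJ gave 0.16 ± 0.104, 0.10 ± 0.088 and 0.03 ± 0.135, each with an interval that included 0.

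In DBA/2J the Tubb5 difference was -0.01 ± 0.190. Its sign turned on 1 control heart, replicate 5, at 10.83 when the next control heart was at 9.55, and without it the difference was 0.18 with an adjusted p of 0.699. The lymphocyte marker mean of the same array was 7.42 against 4.46 to 5.00 in the other DBA/2J control hearts, and its dividing-cell mean was 8.18 against 4.95 to 5.39. Among single genes, chosen after their values were seen, Dntt and Rag1, which act in the rearrangement of antigen receptor genes in developing lymphocytes, were at 8.84 and 9.44 there, against at most 4.03 and 4.40 in the rest. Cd3g, a part of the T cell receptor complex, was at 11.43 against at most 5.83, while the B cell genes Ms4a1 and Cd79a were at 5.42 against at most 4.26 and at 4.02 against at most 4.01. The across-strain Tubb5 difference was 0.24 without this array (adjusted p = 4.11e-07) and 0.23 with the lymphocyte marker mean as a covariate.

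**Figure D2:**
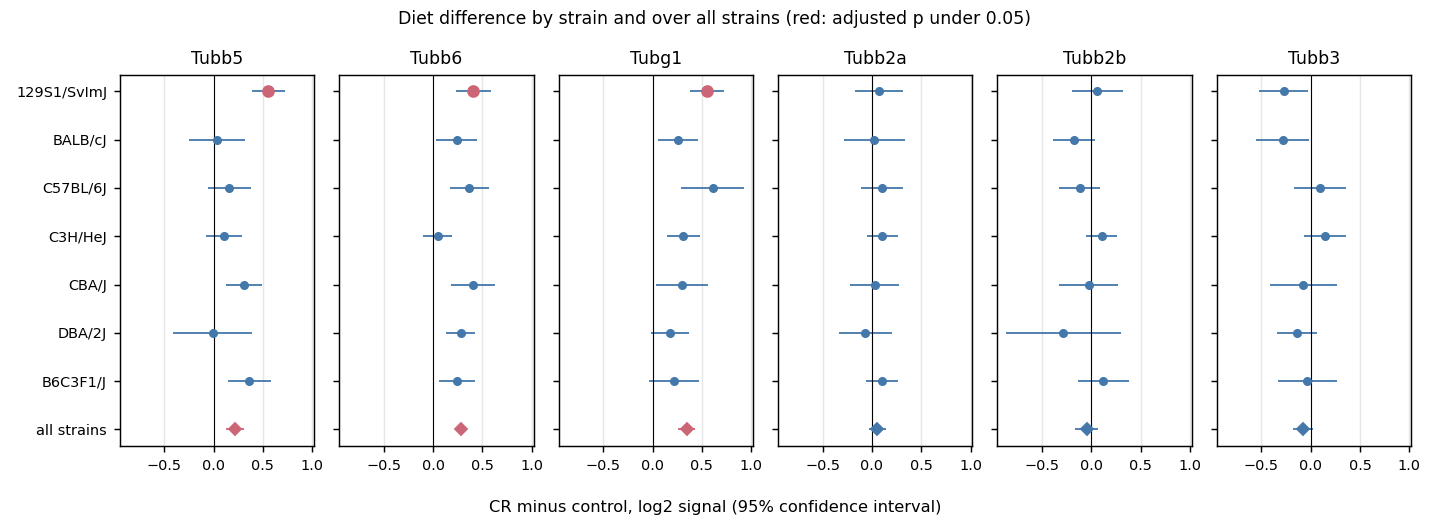
CR minus control on the log2 scale (horizontal axes, shared) for 6 genes by strain and over all strains (vertical axis). Circles are fits on a strain's own hearts, diamonds are the across-strain means, lines are 95% confidence intervals and red marks an adjusted p under 0.05. Tubg1 and Tubb6 lie above 0 in all 7 strains, and the only strain with red circles is 129S1/SvImJ.

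Within single strains, calls were made only in 129S1/SvImJ, for Tubb5, Tubb6 and Tubg1, so 3 of the 6 genes where 3.88% of all genes were called higher. For 2 of the 6 every CR heart lay above every control heart, which held for 0.928% of all genes in that strain. When the marker means of atrial muscle and of white adipocytes were added as covariates, these differences were 0.38 for Tubb5 (adjusted p = 0.220), 0.24 for Tubb6 (adjusted p = 0.546) and 0.30 for Tubg1 (adjusted p = 0.293), in a fit where the genes called in this strain fell from 1361 to 40. The white adipocyte marker mean ran from 6.40 to 6.90 in its control hearts and from 6.18 to 6.59 in its CR hearts, the endothelial mean from 8.59 to 8.96 and from 8.26 to 8.56, and their part in the result was not tested further. Over the 7 strains the same covariates left the Tubb5 difference at 0.22.

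By the study's rule of an unadjusted p under 0.01 in a strain, taken here from limma, Tubb6 was higher in 4 strain lists (129S1/SvImJ, C57BL/6J, CBA/J and DBA/2J), Tubg1 in 3 (129S1/SvImJ, C57BL/6J and C3H/HeJ) and Tubb5 in 3 (129S1/SvImJ, CBA/J and B6C3F1/J). Of the 6 genes, 3 were in at least 3 lists, against 1.39% of all genes, and 1 was in at least 4, against 0.391%. Tubb6 is in the heart list that the study drew from these arrays, so its count is not independent evidence. A strain's list held, as higher in CR, 5.68% of all genes in 129S1/SvImJ and 3.02% in the hybrid. The share was 2.15% for C57BL/6J, 1.29% for BALB/cJ, 1.28% for C3H/HeJ, 0.823% for CBA/J and 0.652% for DBA/2J. None of the 6 was in the BALB/cJ list.

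A difference between strains in the CR response was called by the moderated F test in 0 of the 6 genes, and in 0.712% of all genes. The unadjusted p was 0.0141 for Tubb5, 0.0439 for Tubb6 and 0.0512 for Tubg1, with adjusted p of 0.226, 0.323 and 0.343. Without the arrays that stood apart, Tubb5 (adjusted p = 0.0348) and Tubg1 (adjusted p = 0.0371) passed. The largest strain difference exceeded the smallest by 0.57 for Tubb5, 0.44 for Tubg1 and 0.36 for Tubb6, against a median of 0.34 over all genes.

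The other 3 genes had intervals close to 0 over the strains. Tubb2a differed by 0.05 ± 0.044 (interval -0.03 to 0.14), Tubb2b by -0.05 ± 0.058 (-0.16 to 0.07) and Tubb3 by -0.08 ± 0.051 (-0.18 to 0.02), with adjusted p of 0.50, 0.679 and 0.315. The Tubb2a interval overlapped that of Tubb5 (0.13 to 0.31) and lay below those of Tubb6 and Tubg1, and differences between genes were not tested. Tubb2a strain differences ran from -0.07 in DBA/2J to 0.10 in C3H/HeJ, the narrowest spread of the 6 genes at 0.17. Tubb2b ran from -0.28 in DBA/2J, where control replicate 5 was at 8.52 and the next control heart at 6.74, to 0.12 in B6C3F1/J. The across-strain Tubb2b value was 0.02 without the arrays that stood apart, so it had no settled sign. Tubb3 had its lowest differences in BALB/cJ (-0.29 ± 0.130) and 129S1/SvImJ (-0.28 ± 0.117), with unadjusted p of 0.0408 and 0.0284, and higher in C3H/HeJ (0.14 ± 0.103). These Tubb3 signals lay near background, as given above.

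Levels in control hearts differed between strains for 5 of the 6 genes, in an F test that called 60.7% of all genes. The strain means spanned 0.83 for Tubg1, 0.66 for Tubb2a, 0.56 for Tubb5, 0.52 for Tubb2b, 0.46 for Tubb6 and 0.35 for Tubb3, where the median over all genes was 0.39. The adjusted p was 3.98e-09 for Tubg1, 4.03e-06 for Tubb5, 8.81e-06 for Tubb2a, 1.86e-04 for Tubb6, 0.0293 for Tubb2b and 0.181 for Tubb3. The Tubb2b call rests on DBA/2J control replicate 5, since its adjusted p was 0.312 without that array.

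For Tubg1 the C57BL/6J control hearts stood lowest, at 7.24 ± 0.31 (SD, n = 8). C3H/HeJ (7.66 ± 0.20) came next and differed from C57BL/6J (adjusted p = 0.00276, in a comparison that called 28.5% of all genes). The strains above C3H/HeJ were, in order, 129S1/SvImJ (7.66 ± 0.15), B6C3F1/J (7.69 ± 0.18), DBA/2J (7.76 ± 0.13), CBA/J (8.05 ± 0.31) and BALB/cJ (8.08 ± 0.21). From C3H/HeJ upward no step between neighbours was called. In all, 12 of the 21 strain pairs were called, where the median pair called 14.1% of all genes. Without the arrays that stood apart, among them CBA/J control replicate 1, 14 pairs were called, 2 of them neighbours. CBA/J was then the highest strain, the means spanned 0.90, and DBA/2J was called different from both CBA/J and BALB/cJ. CR hearts of C57BL/6J, at 7.86, were still below control hearts of CBA/J and BALB/cJ by their means. The Tubg1 level in C57BL/6J stood beside other differences of the same hearts, since their atrial marker mean was 9.78 in control and 7.73 in CR mice, against 6.71 and 6.78 in 129S1/SvImJ, and the ventricular mean was 12.13 and 12.52. The F test over the 7 control strains was called for Tubg1 in 17 of 17 alternatives, with an adjusted p of at most 6.40e-07. Atrial and white adipocyte means as covariates were 1 of these. Between 10 and 14 strain pairs were called over 16 alternatives. The part of ventricular muscle in the C57BL/6J level was not tested.

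In control hearts Tubb5 stood highest in BALB/cJ and DBA/2J. 129S1/SvImJ (8.95 ± 0.088), B6C3F1/J (8.98 ± 0.12), C57BL/6J (8.99 ± 0.21), C3H/HeJ (9.06 ± 0.22) and CBA/J (9.14 ± 0.18) gave no call between neighbours. BALB/cJ (9.47 ± 0.34) was higher than CBA/J (adjusted p = 0.0373, with 22% of all genes called) and was not called different from DBA/2J (9.51 ± 0.55), and 10 of 21 pairs were called. The BALB/cJ and DBA/2J groups each held 1 array of high lymphocyte markers, at 10.14 and 10.83 for Tubb5. Without DBA/2J control replicate 5 its mean was 9.32 ± 0.13 (n = 7), 8 pairs were called and DBA/2J was not called different from CBA/J (0.18, adjusted p = 0.238, against 0.37 and 0.0250 with it). Without BALB/cJ control replicate 7 its mean was 9.38 ± 0.22 (n = 7), 8 pairs were called and BALB/cJ was not called different from CBA/J (0.23, adjusted p = 0.166). Without both arrays 7 pairs were called and none of them neighbours. Without all arrays that stood apart 10 pairs were called, 1 of them neighbours. CBA/J was then at 9.20 ± 0.073 (n = 7), higher than C57BL/6J (adjusted p = 0.0454) and 129S1/SvImJ (adjusted p = 0.0297). It was not called different from BALB/cJ (adjusted p = 0.191). The F test was called with either array left out, at an adjusted p of 3.29e-06 without DBA/2J control replicate 5.

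BALB/cJ also stood highest for Tubb2a, at 7.00 ± 0.31, and for Tubb6, at 6.89 ± 0.21. For Tubb2a the lowest strain was C3H/HeJ at 6.34 ± 0.16, 7 of 21 pairs were called and no neighbours in the order were called different. For Tubb6 the lowest was 129S1/SvImJ at 6.44 ± 0.12, 5 pairs were called and again none of them neighbours. In its CR hearts 129S1/SvImJ reached 6.85 for Tubb6 and 9.51 for Tubb5. Its Tubb5 mean thus went from the lowest of the 7 control means to the highest of the 7 CR means, a place it shared with BALB/cJ and DBA/2J, both at 9.50.

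Control hearts of the hybrid were called different from the mean of its parents for 0 of the 6 genes and for 9.96% of all genes. Tubg1 had the largest difference, 0.23 above the parents with an unadjusted p of 0.0199 and an adjusted p of 0.123. After repeated quantile normalization it was 0.25 with an adjusted p of 0.0434, and so passed.

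The genes that varied most like each member between mice of the same group were found from Pearson correlations over the 111 arrays after subtraction of group means. Arrays share their tissue make-up and normalization, so these are descriptions. Tubg1 was closest to Akt1 (r = 0.77), a kinase of insulin signalling, Ube2v1 (0.77), a ubiquitin conjugation cofactor, and Myocd (0.75), a transcription coactivator of cardiac and smooth muscle. Tubb6 was closest to Tfrc (0.56), the transferrin receptor, Slc25a5 (0.56), a mitochondrial ADP/ATP carrier, and the alpha tubulin Tuba4a (0.55). Tubb5 was closest to Slc9a9 (0.81), Septin6 (0.77) and Edem1 (0.76), which gave 0.69, 0.61 and 0.60 without DBA/2J control replicate 5 and 0.56, 0.49 and 0.50 without all arrays that stood apart. Tubb2b was closest to Dntt (0.67), Wdr78 (0.65) and Cdca8 (0.63), and these rest on DBA/2J control replicate 5, since they were 0.31, 0.33 and 0.34 without it and 0.11, 0.09 and 0.20 without all arrays that stood apart. Tubb2a was closest to Hsph1 (0.52) and Dnajb1 (0.49), both heat shock chaperones, and Jpt1 (0.48). For Tubb3 no correlation was above 0.41 (Clcn2, Pdzrn4 and C730034F03Rik). Among the members themselves, Tubb6 and Tubg1 gave 0.38 (0.22 without the arrays that stood apart) and Tubb2b and Tubb5 0.36 (-0.04 without DBA/2J control replicate 5). Tubb5 and Tubb6 gave 0.33, which was 0.37 without the arrays that stood apart. It was 0.46 without DBA/2J control replicate 5 and BALB/cJ control replicate 7 together. The other pairs gave 0.33 or less over all 111 arrays.

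**Figure D3:**
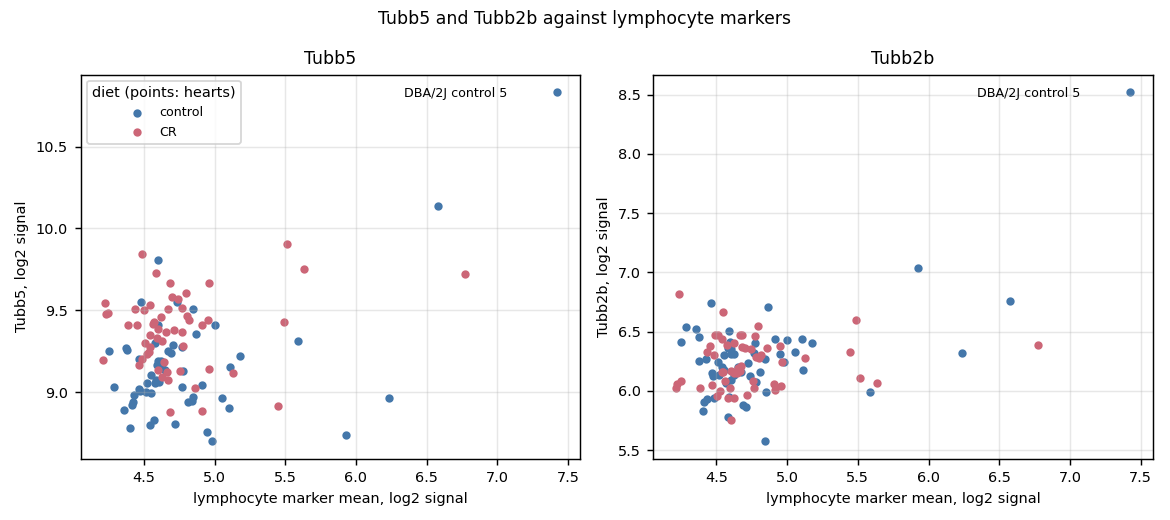
Log2 signal of Tubb5 (left) and Tubb2b (right) against the mean log2 signal of 5 lymphocyte markers in each of 111 hearts (blue control, red CR). DBA/2J control replicate 5 is the farthest point in both panels, at 7.42 on the horizontal axis.

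Tubb5, Tubg1 and Tubb2b varied with markers of other cells, in 84 relations of 6 genes with 14 marker means tested by 100000 permutations within groups and adjusted by Benjamini-Hochberg. Tubb5 correlated with lymphocyte markers at r = 0.51 (adjusted p = 0.0131) and rho = 0.25 (adjusted p = 0.0962), and r was 0.31 without the 2 farthest arrays, DBA/2J control replicate 5 and DBA/2J CR replicate 6. For Tubb2b the same values were r = 0.48 (adjusted p = 0.0208), rho = 0.15 (adjusted p = 0.360) and 0.27. Within strains r ran from -0.71 to 0.85 for Tubb5 and from -0.36 to 0.74 for Tubb2b, so neither relation held in every strain. Tubb5 also rose with atrial (r = 0.47, rho = 0.46), macrophage (0.46, 0.51) and fibroblast markers (0.44, 0.47), with adjusted permutation p of 2.80e-04 for each r and 2.10e-04 for each rho, from an unadjusted p of 1e-05, the smallest that these permutations can give. The r was 0.45, 0.43 and 0.43 without the farthest 2 arrays and was positive within 6 of 7 strains, with within-strain ranges from -0.37 to 0.69, -0.15 to 0.69 and -0.50 to 0.74. Its r with mesothelial, smooth muscle, white adipocyte and brown adipocyte markers was 0.44, 0.40, 0.42 and 0.40, with adjusted p from 4.20e-04 to 0.00144, and that with dividing-cell markers was 0.59 (adjusted p = 0.0374) but 0.16 without the farthest 2 arrays. Tubb5 also fell with other markers by rank. With ventricular markers rho was -0.33 (adjusted p = 0.00787) where r was -0.21 (adjusted p = 0.122) and -0.39 without the farthest 2, and with endothelial markers rho was -0.29 (adjusted p = 0.0219) where r was -0.18 (adjusted p = 0.238) and -0.44 without the farthest 2. With Schwann cell markers its rho was 0.27 (adjusted p = 0.0348) and its r 0.09 (adjusted p = 0.428). Tubb2b with ventricular markers gave r = -0.35 (adjusted p = 0.0131), rho = -0.22 (adjusted p = 0.133) and r = -0.29 without the farthest 2.

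Tubg1 passed with 5 of the 14 means. Its r was -0.46 with Schwann cell markers (adjusted p = 0.00187; rho = -0.31, adjusted p = 0.0176), for which only 3 of 5 genes were measured, and -0.27 without the farthest 2 arrays. With endothelial markers it was 0.41 (adjusted p = 0.00187; rho = 0.21, adjusted p = 0.155) and 0.30 without the farthest 2. Ventricular markers gave 0.36 (adjusted p = 0.0299; rho = 0.31, adjusted p = 0.0167) and 0.43. Macrophage markers gave -0.30 (adjusted p = 0.0159; rho = -0.27, adjusted p = 0.040) and -0.29, and fibroblast markers -0.30 (adjusted p = 0.0229; rho = -0.29, adjusted p = 0.0219) and -0.27. The ventricular and endothelial r were positive within 6 of 7 strains and the other 3 within 2 of 7, so none had 1 sign in every strain. Tubb6 gave no adjusted p under 0.05 with any of the 14 means, and its r lay between -0.24 and 0.19.

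The remaining microtubule genes were followed in 9 lists, of which 132 of 138 genes were measured. In the across-strain fit 20 were higher and 8 lower, or 21.2% of those measured, where 12% of all genes were called in either direction. The share called was highest among the alpha tubulins, at 66.7%. Of 6 alpha tubulins measured 4 rose and 0 fell, and those called were Tuba4a at 1.07 ± 0.066, Tuba8 at 0.93 ± 0.074, Tuba3a at 0.18 ± 0.044 and Tuba1a at 0.18 ± 0.035. Tuba3b differed by 0.20 ± 0.073 and missed the threshold (adjusted p = 0.0514), with means near background at 3.47 in control and 3.68 in CR hearts. The study took Tuba4a, Tuba8 and Ttll1 from these same arrays, so they are not independent evidence of a direction. Of 5 further tubulins 2 rose and 0 fell, namely the delta tubulin Tubd1 (0.12 ± 0.026), a component of centrioles, and Tubg2 (0.19 ± 0.048), the second gamma tubulin, so that both gamma tubulin genes rose.

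**Figure D4:**
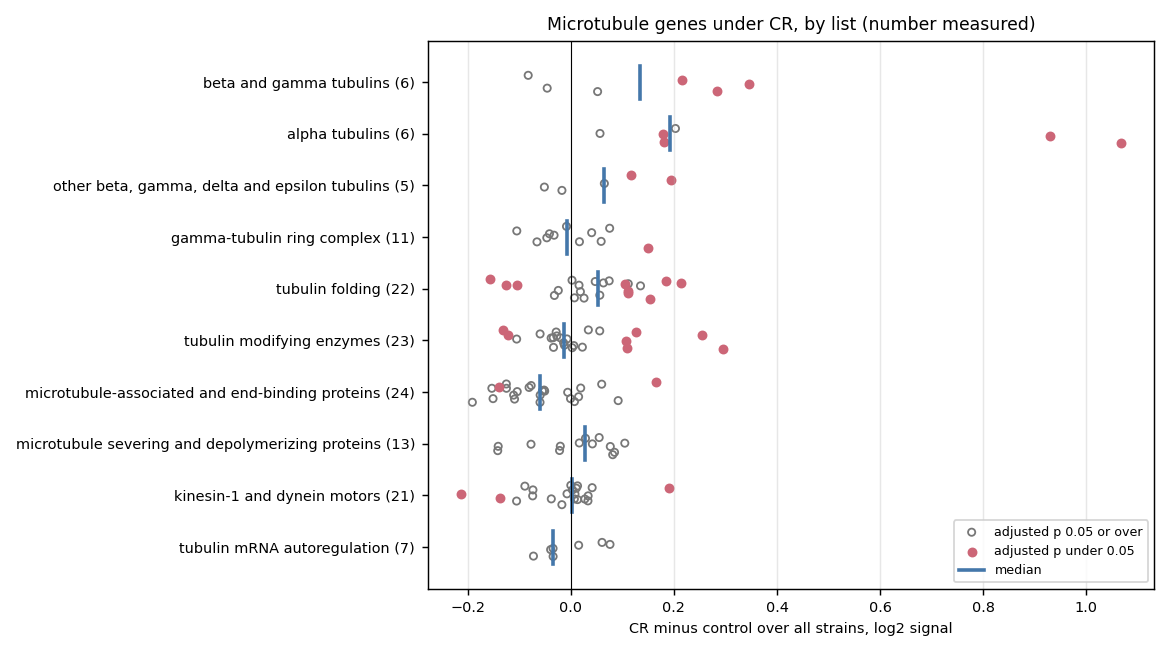
CR minus control over all strains on the log2 scale (horizontal axis) for each measured gene of the beta and gamma tubulins and of 9 lists of other microtubule genes (vertical axis, number measured in parentheses). Filled red points passed an adjusted p under 0.05, open points did not, and blue lines are medians. The alpha tubulins have 2 genes near 1, the genes of the other 8 lists lie between -0.21 and 0.30, and among the beta and gamma tubulins Tubg1 is highest at 0.35.

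Of 11 genes of the gamma-tubulin ring complex and its anchors 1 rose, Tubgcp5 (0.15 ± 0.038), 0 fell and the median was -0.0084. That is 9.09% called, near the 12% of all genes. Among 22 tubulin folding genes 6 rose and 3 fell. The clearest were the prefoldin subunits Pfdn6 (0.19 ± 0.034) and Pfdn2 (0.11 ± 0.032), which hand unfolded tubulin to the chaperonin, and, as falls, the chaperonin subunit Cct2 (-0.10 ± 0.019) and Tbcel (-0.16 ± 0.029), a relative of tubulin cofactor E. Of 23 tubulin modifying enzymes 5 rose and 2 fell. Among the rises were Tpgs2 (0.25 ± 0.029) and Ttll1 (0.30 ± 0.035), subunits of one polyglutamylase. Tpgs1, a further subunit of that enzyme, differed by 0.0026 ± 0.025 and was not called. Ttl (0.11 ± 0.030), which returns the terminal tyrosine to alpha tubulin, rose as well. Agbl2 (0.13 ± 0.037), a carboxypeptidase that shortens tubulin tails, was called higher too. Its means were 4.00 in control and 4.13 in CR hearts, near background like those of Tubb3.

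The shares called in the other 4 lists were 8.33%, 14.3%, 0% and 0%, against 12% of all genes. Of 24 microtubule-associated and end-binding proteins 1 rose (Mapre2, 0.16 ± 0.052) and 1 fell (Mapre3, -0.14 ± 0.041), both of the end-binding family. Of 21 kinesin-1 and dynein genes 1 rose, Dynll2 (0.19 ± 0.055), and 2 fell, the kinesin heavy chain Kif5b (-0.14 ± 0.037) and the dynein heavy chain Dync1h1 (-0.21 ± 0.072). Of 13 severing and depolymerizing proteins and of 7 genes of tubulin mRNA autoregulation, through which cells destroy tubulin mRNA when free tubulin is plentiful, 0 rose and 0 fell. Neither count over the 9 lists held under every alternative. Lower genes were 8 as reported, 16 without the arrays that stood apart and 3 with all 112 arrays. Higher genes were 20 as reported, 10 with all arrays and 11 without 129S1/SvImJ.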

How the data were processed

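Gene expression was measured in 112 hearts with 1 array each. Per the labels and the methods, the authors made the deposited log2 signals in Affymetrix Expression Console with gene-level RMA-Sketch (background correction, quantile normalization, median polish), and no source used here gives software versions or the release of the probe set annotation. Quantile normalization removes part of any shift shared by most genes, and low signals compress differences. An array has no read depth, so the number of arrays limits the precision. Groups came from the sample labels, and each array is a separate mouse.

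Of 35556 probe sets, 21789 had a single symbol in the platform annotation, 1621 several and 12146 none, and identifiers of 21698 matched RefSeq genes (GRCm38.p6). The brightest probe set by mean signal stood for a gene, with no filter on signal. limma 3.58.1 in R 4.3.3 was fitted with 14 group means on 111 arrays, and alone on each strain's arrays. Contrasts were the diet difference averaged over strains, an F test of its variation between strains, an F test and 21 pairs among control strains, and the hybrid against its parents. Tests were 2-sided, p-values were adjusted by Benjamini-Hochberg over 19938 genes, and 0.05 was the threshold. Marker means are means of log2 signals over a list. Correlations and sequences were handled in Python 3.11.15 with pandas 2.3.3, scipy 1.17.1 and numpy 2.4.6, and plots were drawn with matplotlib 3.10.9. Tables in R were read with the data.table package (version 1.17.8).

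The genes, lists and markers were chosen with earlier results of these data known. Named beyond the listed tubulins were up to 4 called genes of each microtubule list by smallest p, and the 3 genes most correlated with each tubulin. The uncalled Tuba3b and Tpgs1 and those said to be chosen after their values were seen were named as well. In simulated data with 19938 genes, the across-strain fit recovered 80% of changes of 0.2 and 100% of 0.3, the fit of 1 strain 10% of 0.3 and 58% of 0.5, and the interaction test 28% of 0.5. Alternatives covered normalization, a filter at percentile 40 of mean signal, probe set choice, left-out arrays and strains, array weights, variance models, covariates, a replicate block and the methods' t-test. Leaving out 1 or 2 single arrays, and the lymphocyte covariate, were added after seeing the data.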

Additional observations from a re-analysis of the deposited data

Results flagged for a closer look

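Of 84 groups of hearts (6 genes in 14 groups), 10 held a highest or lowest heart farther from the rest than Dixon's criterion allows, while chance flags about 1 in 20. Those 10 came from few arrays. CBA/J control replicate 1 was low for Tubb5 (8.74, next 9.08), Tubb6 (6.13, next 6.56) and Tubg1 (7.39, next 7.98). DBA/2J control replicate 5 was high for Tubb5 (10.83, next 9.55) and Tubb2b (8.52, next 6.74). C3H/HeJ control replicate 6 was high for Tubb5 (9.55, next 9.13), and C57BL/6J CR replicate 4 was low for Tubg1 (7.11, next 7.79). Each of these 4 arrays also stood apart over all genes. The other hearts were BALB/cJ control replicate 3, high for Tubb6 (7.42, next 6.86), C57BL/6J control replicate 5, low for Tubb2b (5.99, next 6.24), and B6C3F1/J control replicate 1, low for Tubb2b (5.58, next 6.06).

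A signal lay outside the gene comparisons, in both probe sets that carry Zfp646 and Tubb4b together. In a fit over all 35556 probe sets, probe set 10480628 was higher in CR by 0.62 ± 0.045 on the log2 scale (adjusted p = 9.47e-21, limma) and probe set 10519488 by 0.60 ± 0.044 (adjusted p = 2.58e-20), each in 7 of 7 strains. Control hearts ran from 7.98 through a median of 8.35 to 9.28 in the first and CR hearts from 8.45 through 9.05 to 9.46. In 3 strains every CR heart lay above every control heart (4 for the second). By strain, this held for 0.0351% to 0.928% of the 19938 genes measured, and it was not counted over all probe sets. The difference was largest in 129S1/SvImJ (0.98 and 0.96) and smallest in CBA/J (0.32 and 0.28). Between mice of the same group these probe sets correlated at 0.98 with each other, so they count as 1 measurement, and at 0.64 and 0.65 with Tubb6 and 0.59 and 0.58 with Tubg1. Each lists 5 accessions, of which 1 matched a RefSeq transcript, that of Tubb4b. The study's heart list from these arrays holds Tubb4b, so its rise is not independent evidence. Probe set 10557808, which carries Zfp646 alone, changed by -0.09 ± 0.037 (adjusted p = 0.140) and correlated with them at 0.19 and 0.20. Which transcript gives the signal was not tested.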

How the results depend on the processing

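Tubb6 and Tubg1 were called higher over the strains under all 24 alternatives, with differences from 0.26 to 0.32 and from 0.30 to 0.37. Tubb5 was called under 23 (0.15 to 0.27), the exception being all 112 arrays (0.15, adjusted p = 0.265). The Tubb2b difference changed sign to 0.016 without the arrays that stood apart and 0.011 with array weights, and was 0.00075 without DBA/2J control replicate 5 and BALB/cJ control replicate 7 together, uncalled in each.

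Members called for the interaction went from 0 to 2 (Tubb5 and Tubg1) without the arrays that stood apart and 2 with array weights. The hybrid contrast called 1 member, Tubg1, after repeated quantile normalization, median centering and array weights. Calls within strains went from 3 to 6 without the arrays that stood apart, 8 with array weights, 8 with all groups in 1 fit and 0 with the covariates of atrial and adipocyte markers. Tubb5 in DBA/2J was -0.010 as reported and without BALB/cJ control replicate 7, 0.18 without DBA/2J control replicate 5 or all arrays that stood apart, 0.11 with array weights, 0.26 with those covariates and 0.042 with the lymphocyte covariate. With all 112 arrays 0 pairs of control strains were called for Tubb5 (10 as reported) and 3 for Tubb6 (5), and with array weights 8 were called for Tubb6.

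Other values that changed sign were uncalled throughout. Between the hybrid and its parents, Tubb2a (-0.0056 as reported) was 0.021 after repeated quantile normalization, 0.040 after median centering and 0.0026 with the lymphocyte covariate. Tubb6 there (-6.4e-05) was 0.024 and 0.046 under the same 2 normalizations and 0.013 without the arrays that stood apart. Tubb3 (0.030) was -0.0089 after repeated quantile normalization, and with the atrial and adipocyte covariates Tubb2b (-0.066) was 0.0097 and Tubb5 (-0.048) was 0.055. For CR in CBA/J, Tubb2a was -0.034 after repeated quantile normalization and -0.037 with array weights, and ran from -0.042 without CBA/J control replicate 1, as without all arrays that stood apart, to 0.026 without DBA/2J control replicate 5. Tubb2b in CBA/J ran from -0.027 to 0.090 under the same omissions, and was 0.10 with array weights, 0.13 with the atrial and adipocyte covariates and 0.021 with the lymphocyte covariate. Tubb3 in CBA/J (-0.077) was 0.022 after repeated quantile normalization. In DBA/2J, Tubb2a ran from -0.069 without BALB/cJ control replicate 7 to 0.011 without DBA/2J control replicate 5, as without all arrays that stood apart, and was 0.00020 with the atrial and adipocyte covariates, where Tubb2b was 0.12. Tubb3 in DBA/2J (-0.14) was 0.039 with all 112 arrays. In B6C3F1/J, Tubb3 (-0.035) was 0.020 without the arrays that stood apart, 0.013 with array weights and 0.066 with the lymphocyte covariate.

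The 9 lists held 20 higher and 8 lower genes. Higher genes were 10 with all arrays and 11 leaving out 129S1/SvImJ. Lower genes were 3 with all arrays, 16 without the arrays that stood apart, 25 with array weights, 14 with either set of covariates, 15 without CBA/J control replicate 1, 8 without BALB/cJ control replicate 7, and 2, 14, 15 and 5 leaving out 129S1/SvImJ, C57BL/6J, CBA/J and B6C3F1/J. The cause was not tested.

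Same-numbered control and CR mice were not treated as pairs (median correlation of deviations 0.084 over 55 pairs, against 0.0031 for other pairs). The correlation was over 0.1 in 26 of the 55 and in 124 of 385 others. With a replicate block the Tubb5 difference was 0.21, and 19 list genes were higher and 8 lower.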

Other observations

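The probe set that names Tubb2a, Tubb2b and the pseudogene Tubb2a-ps2 together had a CR difference of -0.02 ± 0.039 (adjusted p = 0.854, limma), with the CR mean higher in 3 of 7 strains. In the array left out of the fits, Tubb3 (5.52) and Tubb6 (7.49) lay above every array in the fit, which reached 4.65 and 7.43, and Tubb5 (5.93), Tubb2a (6.03) and Tubb2b (5.57) lay below every one of them.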
